A study of Mus musculus with 13 samples.

Results

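The genes described here encode ligands, receptors, inhibitors and a target of TGF-β and activin signaling, measured by single-cell RNA sequencing in mouse colon tumors and the mucosa beside them. They were taken by symbol, 10 of the 32285 genes in the files: the ligand genes Inhba, Inhbb, Tgfb1, Tgfb2 and Tgfb3, the receptors Acvr1b and Acvr2a, the inhibitors Fst and Smad7, and Tgfbi, which is named for its induction by TGF-β. All 10 had UMIs (unique molecular identifiers, each marking a captured transcript) in tumors and in mucosa. The libraries were 10 colon tumors and 3 samples of adjacent mucosa from 3 mice, here called A (24 weeks of age, tumors 5 to 8 and mucosa 2), B (23 weeks, tumors 9 and 10 and mucosa 3) and C (20 weeks, tumors 1 to 4 and mucosa 1). Every mouse was ApcMin/+; p16cis/cis on the C57BL/6J strain and ate the supplemented diet, which is enriched in folic acid, vitamin B12, betaine and choline. ApcMin is a truncating mutation of the Apc tumor suppressor gene that gives intestinal tumors, and p16cis is an engineered allele whose p16 promoter gains DNA methylation. Other genotypes and diets were not analysed here, so the comparisons are between tissues and between cell types.

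Ligands of this family bring together type II and type I receptor kinases on the cell surface, and the type I receptor phosphorylates SMAD proteins that enter the nucleus and regulate target genes. Activins are dimers of the chains encoded by Inhba and Inhbb, whereas the TGF-βs are secreted in a latent form that has to be released before they can signal. In the colon the pathway restrains growth of the epithelium and acts on fibroblasts and immune cells, and it is often disabled in colorectal cancer.

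After filtering, 108500 of 137591 barcodes were kept as cells, 85957 from tumors and 22543 from mucosa. Libraries held 57221300 to 116133079 UMIs, with a median per cell of 3578 to 4998 in tumors and 7428 to 9830.5 in mucosa, and no pair of libraries shared more than 34 cell barcodes. Clusters were named from marker genes, with "-like" added. The cluster that scored as Spp1+ macrophage was led by Ccl24, Il1a, Cxcl3, Serpinb2 and Inhba, with Arg1 and Nos2 among its top genes, and Spp1 was lower in it (957 CPM, UMIs per 1000000 UMIs) than in a C1q+ macrophage cluster (2541 CPM). It is therefore called Arg1+ macrophage-like here. Tumors held 16044 epithelial cells and were otherwise mostly immune cells, whereas 15178 of the mucosal cells were epithelial, and no fibroblast cluster was found in either. Mucosa was dissociated with EDTA and TrypLE and tumors with an enzymatic tumor kit, so tissue and dissociation cannot be told apart. The labels call 7 of the 13 libraries female, mixed within mouse A and within mouse C, while all 13 held RNA of the Y-linked gene Ddx3y (29.1 to 50.7 CPM) and at most 0.129 CPM of Xist. Tumors of a mouse share that animal, so p-values measure the spread between libraries and not between mice.

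In the sums over all cells the ligand genes, Fst, Tgfbi and Smad7 were higher in the tumors, and the receptor genes differed little. Inhba, which encodes the chain of activin A, was between 34.6 and 176 CPM in the 10 tumors, with a median of 86.0, and 0, 0.0244 and 0.0112 CPM in mucosa 1, 2 and 3. The groups did not overlap, with 56002 Inhba UMIs in the tumors and 3 in the mucosa libraries together. The ratio per UMI sequenced was 7157, with a 95% counting interval of 2449 to 34707. Such intervals cover counting error only.

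Fst encodes follistatin, a secreted protein that binds activin and keeps it from its receptors. It was between 7.23 and 18.4 CPM in tumors, with a median of 12.1, and had 1 UMI in the mucosa, in mucosa 2. Against 7517 UMIs in the tumors the ratio was 2882, with a 95% counting interval of 517 to 113850. Tgfbi, which encodes a secreted matrix protein, was between 243 and 435 CPM in tumors, with a median of 322, against 1.39, 3.55 and 6.07 CPM in mucosa 1, 2 and 3. Its log2 difference was 6.51 ± 0.45 (SE). For both genes the lowest tumor stood far above the highest mucosa library.

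Tgfb1, the TGF-β ligand of most immune cells, was between 113 and 159 CPM in tumors, with a median of 125, and 19.9, 7.49 and 10.8 CPM in mucosa 1, 2 and 3, a log2 difference of 3.41 ± 0.26. Inhbb, the chain of activin B, and the other TGF-β ligands Tgfb2 and Tgfb3 were scarce, with tumor medians of 1.70, 0.369 and 1.46 CPM. Each was nevertheless higher in all 10 tumors than in any mucosa library, by 5.90 ± 0.80, 2.95 ± 0.57 and 3.18 ± 0.61 on the log2 scale, although Inhbb rested on 6 and Tgfb2 on 14 mucosal UMIs. The Tgfb3 difference was 4.18 without mucosa 1, and that of Tgfb2 was 3.54 with doublets kept. Smad7, an inhibitory SMAD that the pathway itself induces, was between 73.3 and 144 CPM in tumors, with a median of 120.0, and 35.8, 42.9 and 50.3 CPM in the mucosa libraries, a log2 difference of 1.44 ± 0.22 without overlap.

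The receptor genes moved little. Acvr1b encodes a type I activin receptor, and its tumor levels of 11.1 to 13.6 CPM overlapped the 13.1, 11.7 and 15.9 CPM of mucosa 1, 2 and 3. Its log2 difference of -0.15 ± 0.10 did not pass the test (adjusted p = 0.183, edgeR). Acvr2a, a type II activin receptor, was 9.16, 11.8 and 10.6 CPM in the mucosa libraries and 6.86 to 9.79 CPM in tumors, with 9 of 10 tumors below every mucosa library. It fell, with a log2 difference of -0.30 ± 0.10 (adjusted p = 0.0192, edgeR), but that call was lost without mucosa 2 (-0.19, adjusted p = 0.166), without mucosa 3 (-0.29, adjusted p = 0.0594) and with one tumor sum per mouse and the mouse as a replicate block (-0.25, adjusted p = 0.217).

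By edgeR's quasi-likelihood test with Benjamini-Hochberg adjustment over all genes tested, 9 of the 10 genes passed, 8 higher and 1 lower, where 70.9% of 17363 genes passed, 36.6% higher and 34.4% lower. Inhba, Inhbb, Tgfb2, Tgfb3 and Fst were so scarce in mucosa that they passed the low-count filter only through the tumors and had to differ, so the count is no support by itself. Of the other 5 genes 4 passed. Most genes tested passed in this comparison, with a median log2 difference of 0.03 over all of them. The sums mix cell types, so from the sums alone fewer cells of a type and less RNA per cell cannot be told apart. The 11 genes of a myeloid list summed to 22870 to 43370 CPM in tumors and 272 to 343 in mucosa, and the 7 genes of a fibroblast list to 1.05 to 17.6 and 0.153 to 0.682 CPM. Of 16 genes induced by tissue dissociation 16 were higher, their sum being 4424 to 7404 CPM in tumors and 1561 to 1707 in mucosa. Their part in the differences above was not tested.

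**Figure D1:**
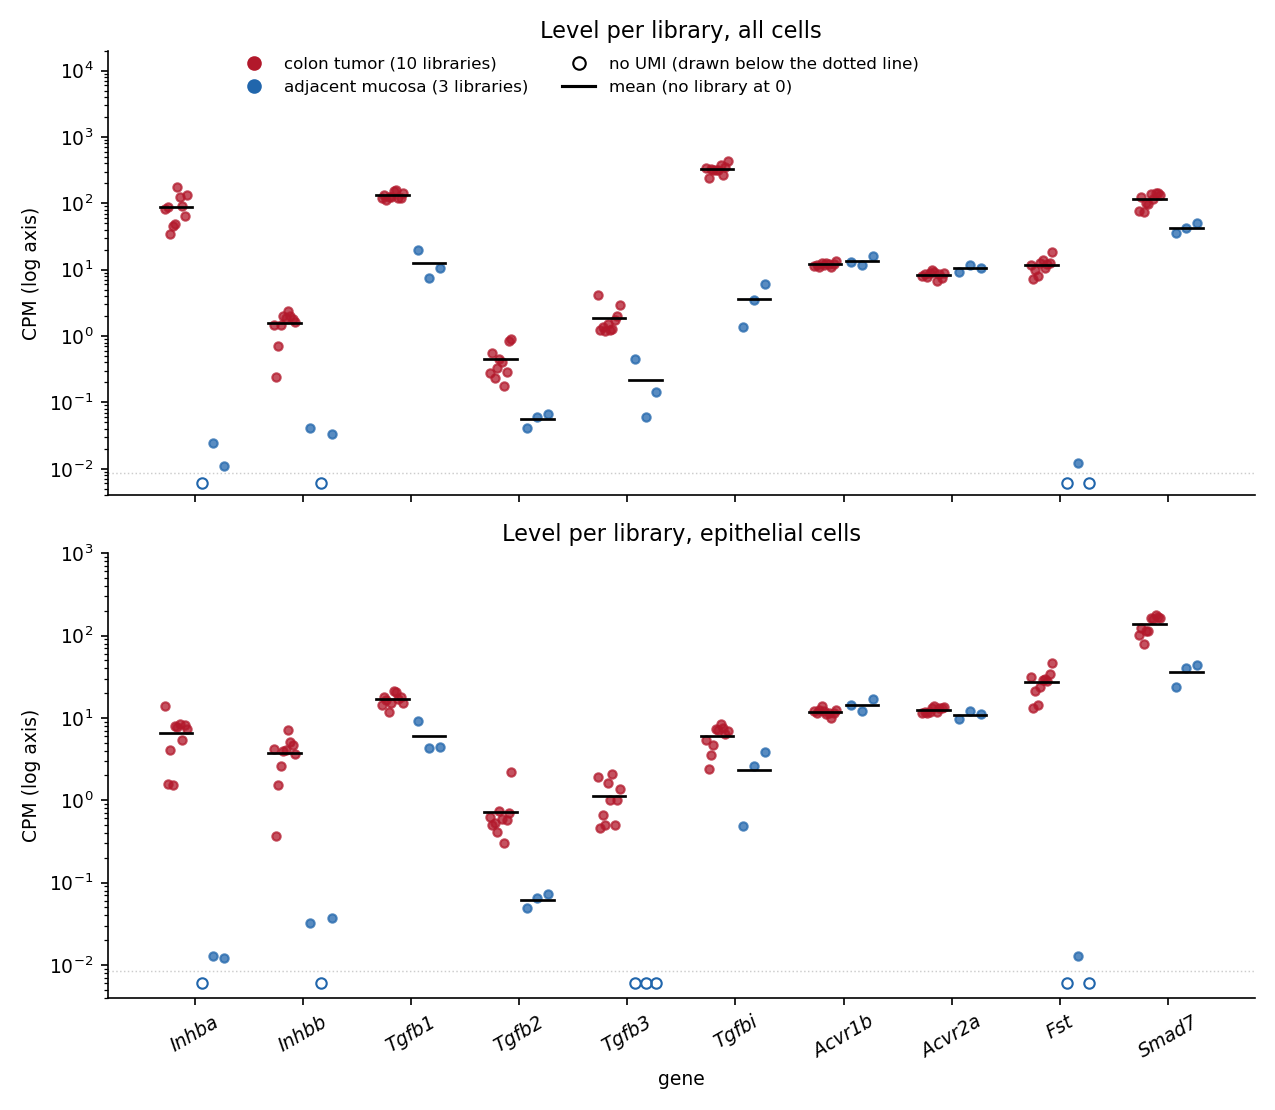
Level of each of the 10 genes in every library, in UMIs per 1000000 UMIs (CPM) on a log axis, over all cells and over epithelial cells alone. Points are the 10 tumors and 3 mucosa libraries. Inhba lies between 34.6 and 176 CPM in tumors over all cells and at 3 UMIs in all mucosa together, while Acvr1b lies at about the same height in both tissues.

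The levels by cell class show where each gene's RNA was in the tumors. A level was computed per tumor from the summed UMIs of a class with at least 20 cells, averaged over the tumors of a mouse and then over the mice, and is given as mean ± SD over mice (n = 3). These levels are descriptions with no test. The counts come from the 3′ ends of transcripts, so CPM is not divided by gene length.

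**Figure D2:**
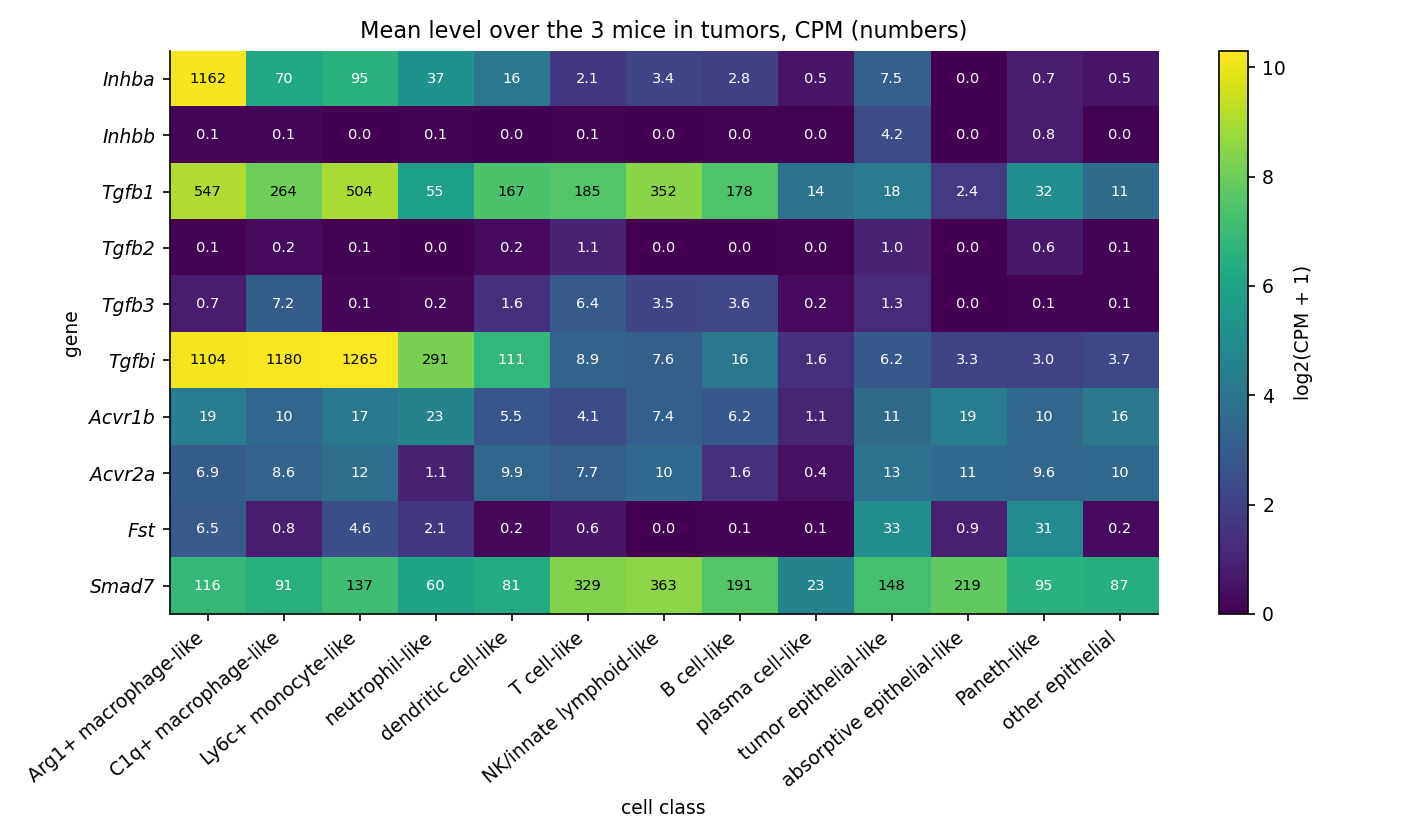
Mean level over the 3 mice of each gene in the cell classes of the tumors, in CPM. Inhba is highest in Arg1+ macrophage-like cells (1162 CPM), Tgfbi exceeds 1000 CPM in the monocyte and both macrophage classes, and Fst and Inhbb are highest in tumor epithelial-like cells (33.4 and 4.19 CPM).

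Inhba RNA lay mostly in 1 cell class. Arg1+ macrophage-like cells had 1162 ± 366 CPM, followed by Ly6c+ monocyte-like cells at 94.9 ± 35.6, C1q+ macrophage-like cells at 70.0 ± 26.6 and neutrophil-like cells at 36.8 ± 5.26 CPM. The first stood above the second in 10 of 10 tumors, the second above the third in 8 of 10 and the third above the fourth in 9 of 10, each by more than the SD of the difference over mice. Arg1+ macrophage-like cells were 6.41% of tumor cells and gave 73.3% ± 7.53 of the Inhba UMIs, with 9.25% ± 3.78 from C1q+ macrophage-like and 3.06% ± 1.99 from tumor epithelial-like cells. At least 1 Inhba UMI was found in 72.4% of them, or 45.0% after each cell was thinned to 1000 UMIs. In T cell-like cells, taken as a measure of free RNA, the shares were 0.53% and 0.271%, at a median of 3483 UMIs per cell against 6377.

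Within that class the Inhba level differed among tumors, from 538 CPM to 2038 CPM, with a median of 1062. Averaged per animal it was 1457 CPM for A, 1278 for B and 752 for C. The ranges of mouse A (896 to 2038) and mouse C (538 to 957) overlapped. Arg1+ macrophage-like cells were 4.28% to 8.40% of the cells of a tumor. Mucosa held 6 cells of this cluster, so it could not be compared between tissues.

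Inhba also varied among the clusters of the other myeloid classes. It reached 390.1 ± 65.9 CPM in a C1q+ macrophage-like cluster with Mrc1, Nrg1, Hspa1a and Ptgs2 among its top genes, whose cells had a median of 1048 UMIs. The other two C1q+ clusters had 66.2 ± 8.98 and 55.1 ± 18.8 CPM. Among neutrophil-like cells, the cluster with Fnip2, Ccl3 and Csf1 among its top genes had 122 ± 40.1 CPM, the cluster led by G0s2 had 46.0 ± 10.8 and the cluster led by Ngp and Retnlg, genes of young neutrophils, had 22.1 ± 5.99.

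**Figure D3:**
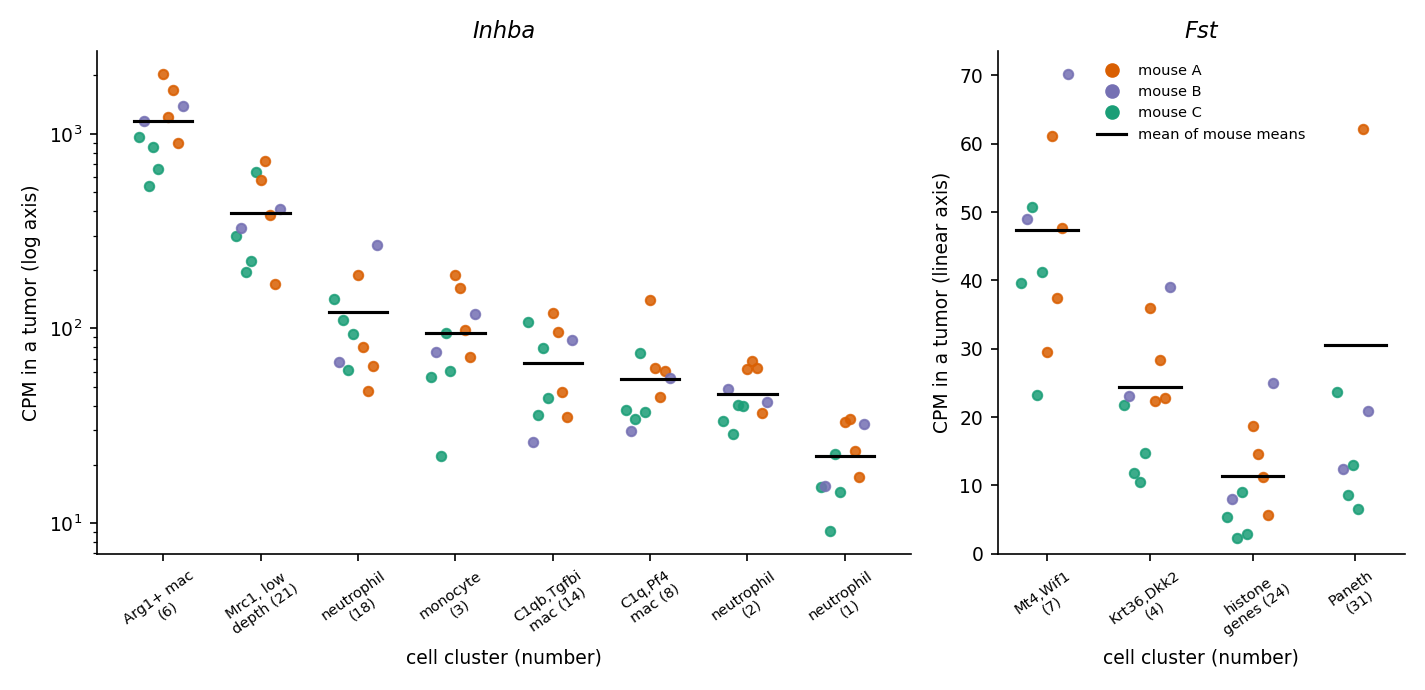
Inhba in myeloid clusters (log axis) and Fst in epithelial clusters (linear axis), in CPM, with cluster numbers in brackets and colors for the 3 mice. Points are tumors with at least 20 cells of the cluster and lines are means of the mouse means. Inhba falls from 1162 CPM in the Arg1+ cluster to 22.1 CPM in the neutrophil cluster led by Ngp, and Fst from 47.4 CPM in the cluster led by Mt4 to 11.3 CPM in the cluster with histone genes.

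The promoters of Inhba and Tgfbi are printed because these had the 2 largest tumor against mucosa differences over all cells among the 7 genes with a RefSeq promoter entry, Tgfb3, Fst and Smad7 having none. On the GRCm38.p6 build, the release behind the mm10 of the submitters' notes, Inhba lies at chr13:16004256-16031609 and Tgfbi at chr13:56609586-56639359. Each window runs from 250 bases before to 50 after an annotated start on the plus strand, chr13:16011601-16011900 for Inhba and chr13:56609336-56609635 for Tgfbi. Capitals mark TATAAA in Inhba and the SMAD-binding letters CAGAC or their complement GTCTG in Tgfbi.
Inhba: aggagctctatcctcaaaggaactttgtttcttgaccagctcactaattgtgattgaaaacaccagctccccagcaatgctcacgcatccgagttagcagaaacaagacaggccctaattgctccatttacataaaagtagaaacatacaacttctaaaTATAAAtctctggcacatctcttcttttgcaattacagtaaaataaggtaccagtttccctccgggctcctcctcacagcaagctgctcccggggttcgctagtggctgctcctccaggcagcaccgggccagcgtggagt
Tgfbi: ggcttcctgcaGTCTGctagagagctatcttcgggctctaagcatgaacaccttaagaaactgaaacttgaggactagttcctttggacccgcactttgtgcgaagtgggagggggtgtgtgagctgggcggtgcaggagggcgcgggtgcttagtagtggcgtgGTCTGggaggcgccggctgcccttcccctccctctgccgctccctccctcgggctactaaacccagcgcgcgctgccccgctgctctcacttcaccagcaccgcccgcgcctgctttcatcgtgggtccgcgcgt
TATAAA, searched on both strands, is in 13.6% of 32851 RefSeq promoter windows and CAGAC in 49.6%. The AP-1 letters TGANTCA, in 7.81% of windows, and the TCF/LEF letters CTTTGAT, in 3.73%, are in neither of these windows. GC content was 47.7% for Inhba and 63.3% for Tgfbi. A match describes letters and says nothing of binding.

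Tgfbi had a broader myeloid pattern than Inhba. It was 1265 ± 199 CPM in Ly6c+ monocyte-like, 1180.5 ± 82.6 in C1q+ macrophage-like and 1104 ± 155 in Arg1+ macrophage-like cells, and neighbours in this order did not differ beyond their spread (higher in 6 of 10 and 6 of 10 tumors). Neutrophil-like cells followed at 291 ± 2.78 CPM and dendritic cell-like cells at 111 ± 17.1, each step being seen in 10 of 10 tumors. C1q+ macrophage-like cells, 9.95% of the cells, gave 40.6% ± 2.10 of the Tgfbi UMIs, Ly6c+ monocyte-like cells 26.6% ± 1.53 and Arg1+ macrophage-like cells 18.8% ± 2.44. The C1q+ cluster led by Clec4a3 and C1qb had 1759 ± 148 CPM and the C1q+ cluster led by Ms4a7 and Pf4 had 961 ± 41.7. The former had C1qb and Trem2 but also the monocyte gene Ccr2 among its top genes, so its place in the class is uncertain. Its 2898 of the 8865 tumor cells of the class held 15.7% of all tumor Tgfbi UMIs. Tumor epithelial-like cells had 6.19 ± 1.76 CPM. In mucosa 3, the only mucosa library with at least 20 cells of either class, Tgfbi was 802 CPM in 39 C1q+ macrophage-like cells. It was 785 CPM in 25 Ly6c+ monocyte-like cells there. This is 1 library, and the tissues were not tested within these classes.

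**Figure D4:**
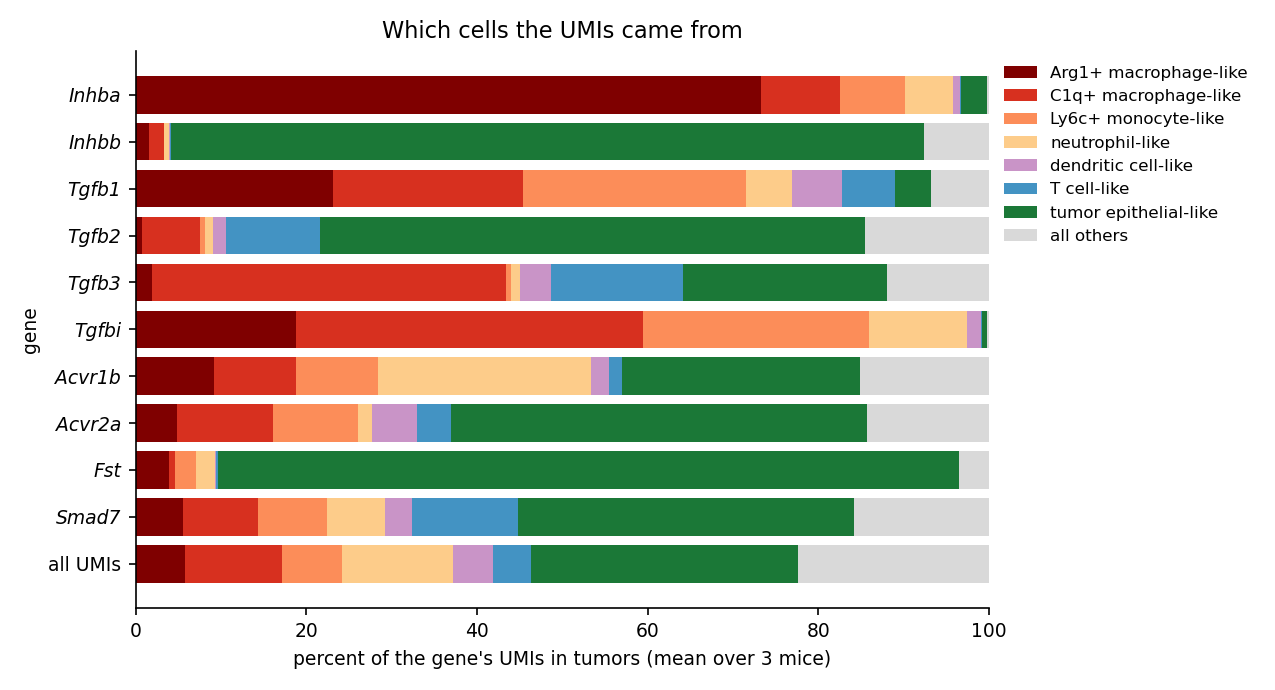
Percent of each gene's UMIs in tumors by cell class, as the mean over 3 mice. Arg1+ macrophage-like cells gave 73.3% of Inhba UMIs but 5.75% of the UMIs of all genes, and tumor epithelial-like cells gave 86.9% of Fst and 88.3% of Inhbb UMIs but 31.3% of the UMIs of all genes.

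Tgfb1 was spread over the immune cells. Arg1+ macrophage-like cells had 547 ± 41.9 CPM and Ly6c+ monocyte-like cells 504 ± 51.8, which did not differ beyond their spread (higher in 7 of 10 tumors). NK or innate lymphoid-like cells came next at 352 ± 26.9 CPM, then C1q+ macrophage-like cells at 264 ± 8.74 and T cell-like cells at 185 ± 17.9. Neutrophil-like cells had 55.1 ± 8.33 CPM and tumor epithelial-like cells 18.3 ± 3.63. Among T cells, the cluster led by Il17a, the gene of interleukin 17, had 249.8 ± 38.6 CPM and the cluster led by Foxp3, the factor of regulatory T cells, had 243 ± 18.7.

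Tgfb3 had its own pattern at low levels. It was 7.22 ± 1.04 CPM in C1q+ macrophage-like and 6.41 ± 2.08 in T cell-like cells, which did not differ beyond their spread (higher in 6 of 10 tumors), and 3.62 ± 1.77 CPM in B cell-like cells, the next class. Among T cells it was 12.1 ± 3.65 CPM in the cluster led by Il17a and 3.19 ± 3.09 in that led by Foxp3. Tgfb2 had 279 UMIs in all tumors, of which 64.0% ± 11.6 came from tumor epithelial-like cells, where its level was 0.978 ± 0.535 CPM. The mean in T cell-like cells, 1.06 ± 1.58 CPM, rested on 21 UMIs and was 0.151 CPM without mouse B.

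Fst and Inhbb were genes of the tumor epithelium. Fst was 33.4 ± 4.86 CPM in tumor epithelial-like cells, from 18.9 in the lowest tumor to 49.3 in the highest. Paneth-like cells, with Lyz1 and defensin genes, had 30.6 ± 27.4 CPM over 7 tumors, from 6.61 to 62.2. The difference between these classes was smaller than its spread, although tumor epithelial-like cells were higher in 6 of 7 tumors. Without mouse B or mouse C the Paneth-like mean was the higher one. Tumor epithelial-like cells, 14.7% of the cells, gave 86.9% ± 4.79 of the Fst UMIs, and 15.3% of them had an Fst UMI against 0.201% of T cell-like cells, at medians of 11270 and 3483 UMIs (2.79% and 0.0477% after thinning).

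Inside the tumor epithelium the cluster with Mt4, Wnt6, Apcdd1 and Wif1 among its top genes stood highest for the activin genes, in the clustering used here. It had 47.4 ± 10.9 CPM of Fst, 6.59 ± 2.40 of Inhbb and 12.1 ± 1.09 of Inhba. The cluster led by Krt36 had 24.4 ± 8.55, 1.70 ± 1.03 and 3.32 ± 1.76 CPM of these genes. The cluster with histone genes, which are transcribed in S phase, had 11.3 ± 5.90, 0.956 ± 0.352 and 1.22 ± 0.775 CPM. In a finer clustering (resolution 2) Fst was a top gene of a cluster of 1284 tumor cells led by Sprr2b and Krt17, also with Krt36. It was not a top gene of the finer cluster with Mt4, Wnt6 and Apcdd1, and levels in the finer clusters are not given. Over the whole class Inhbb was 4.19 ± 2.06 CPM, above the next class, Paneth-like cells at 0.779 ± 0.240, in 7 of 7 tumors.

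A cluster of 55 tumor cells, too few for levels over mice, held several ligand genes together. It was led by Sparcl1, Igfbp7 and Rgs5 and named endothelial-like, with the pericyte gene Rgs5 and the collagen gene Col3a1 among its top genes. Pooled over tumors it had 148 CPM of Inhba (95% counting interval 111 to 193), 116 CPM of Tgfb2 (95% counting interval 83.7 to 156) and 78.0 CPM of Inhbb (95% counting interval 52.2 to 112). Its Tgfb2 and Inhbb values, from 43 and 29 UMIs, were above the mean of every class described over mice, with no replicate check.

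The 2 receptors differed in where they were found. Acvr1b was highest in neutrophil-like cells at 23.2 ± 2.68 CPM, above Arg1+ macrophage-like cells at 19.3 ± 0.757 in 10 of 10 tumors, and was 10.7 ± 0.702 in tumor epithelial-like cells. Acvr2a was 1.06 ± 0.159 CPM in neutrophil-like cells and highest in tumor epithelial-like cells at 13.3 ± 0.720, which did not differ beyond the spread from Ly6c+ monocyte-like cells at 12.3 ± 1.58. Plasma cell-like cells had the lowest mean of each, 1.08 ± 0.0848 CPM of Acvr1b and 0.364 ± 0.146 of Acvr2a. These levels are per UMI, and the order per cell can differ. The median was 16550 UMIs in plasma cell-like, 11270 in tumor epithelial-like, 3483 in T cell-like and 2639 in neutrophil-like cells.

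Smad7 was found in every class. It was highest in NK or innate lymphoid-like cells at 363 ± 85.4 CPM and T cell-like cells at 329 ± 59.2, which did not differ beyond their spread (higher in 8 of 10 tumors). Absorptive epithelial-like cells had 219 ± 37.1 CPM, B cell-like cells 191 ± 37.3, tumor epithelial-like cells 148 ± 31.9 and plasma cell-like cells 23.4 ± 4.70. Tumor epithelial-like cells gave 39.3% ± 5.88 of its UMIs and 31.3% of the UMIs of all genes.

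Likeness of pattern was measured as Pearson's r of log2(CPM + 1) over the means of 13 tumor classes, for genes reaching 50 CPM in a class. The genes most like Inhba were Sod2 (0.95), Itga5 (0.94), F10 (0.94), and those most like Tgfbi were Lyz2 (0.99), Csf1r (0.99), Fcgr4 (0.99). Fst was most like Onecut2 (0.85), Dkk2 (0.84), Apcdd1 (0.84), and Tgfb1 like Gtf2b (0.95), Atp1b3 (0.95), Bnip2 (0.95). For Acvr1b they were Alas1 (0.95), Pgd (0.94), Sat1 (0.92), for Acvr2a Itgb1 (0.95), Dctn2 (0.94), Psmd13 (0.94) and for Smad7 Sirt7 (0.92), Rab5a (0.91), Trir (0.90). The classes share libraries and differ in depth, so these are descriptions. Inhbb, Tgfb2 and Tgfb3 stayed under 10 CPM in every class averaged over mice and were left out.

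When only epithelial cells were summed, the 5 ligand genes, Fst and Smad7 were still higher in tumors. These sums hold different epithelial cells in the 2 tissues, since 12894 of the 16044 tumor cells and 33 of the 15178 mucosal cells were tumor epithelial-like. Fst was between 13.1 and 46.3 CPM in tumors, with a median of 28.4, and had 1 UMI in mucosa, a ratio of 5787 with a 95% counting interval of 1038 to 228590. Inhbb was between 0.367 and 7.17 CPM in tumors and had 5 UMIs in mucosa, a log2 difference of 6.88 ± 0.92. Tgfb3 had 288 UMIs in tumors and none in mucosa, which makes it at least 80.7-fold higher against a floor of 3 counts over the group. Every tumor lay above every mucosa library for each of these genes.

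Epithelial Inhba was between 1.54 and 13.8 CPM in tumors, with a median of 7.56, against 2 mucosal UMIs, which makes the ratio 712 (197 to 5882, 95% counting interval). The 11 myeloid genes summed to 387 to 922 CPM in the same tumor sums and 92.6 to 105 CPM in mucosa. In tumor epithelial-like cells these genes stood, at their median, at 0.348 to 0.887% of their level in the myeloid classes of the same tumor. That percentage of the myeloid Inhba level came to 0.335 to 2.84 CPM, and the measured 2.07 to 14.9 CPM was above it in 10 of 10 tumors. It was above the percentage of the highest of the 11 genes in 4 of 10 tumors. For Fst and Tgfb3 the measured level was above that highest percentage in all 10 tumors, and for Tgfb1 in 8 of 10.

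Tgfbi behaved differently in the epithelium. Its 2.39 to 8.48 CPM in tumors overlapped the 0.485, 2.62 and 3.80 CPM of mucosa 1, 2 and 3, and the log2 difference of 1.07 ± 0.47 did not pass (adjusted p = 0.0575, edgeR). It passed with the mouse as a replicate block (1.24), with DESeq2 (1.06), under 10% mitochondrial UMIs (1.59) and without mucosa 3 (1.63), tumor 10 (1.15) or tumor 2 (1.13). With one tumor sum per mouse and the mouse as a block it did not (1.35, adjusted p = 0.0985, edgeR). In tumor epithelial-like cells it was above the median myeloid percentage in 8 of 10 tumors and above the highest in 0 of 10.

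Epithelial Smad7 was between 79.8 and 176 CPM in tumors, with a median of 141, and 23.6, 40.7 and 44.5 CPM in mucosa 1, 2 and 3, a log2 difference of 1.62 ± 0.25 without overlap (adjusted p = 1.03e-04, edgeR). Tgfb1 rose by 1.21 ± 0.24 and Tgfb2, on 14 mucosal UMIs, by 3.16 ± 0.59. Acvr1b fell by 0.58 on the log2 scale (SE 0.11, adjusted p = 4.84e-04, edgeR), from 14.4, 12.2 and 16.8 CPM in the mucosa libraries to 9.90 to 13.8 CPM in tumors, and 10 of 10 tumors were below the mucosa of its own mouse. In clusters with cells of both tissues the tallies were mixed. In the absorptive cluster led by Tgm3 and Clca4b Acvr1b was 13.9 to 35.9 CPM in 7 tumors and 21.6, 12.3 and 19.5 in mucosa 1, 2 and 3. There 5 of 7 tumors were above their own mucosa, although the mucosa 1 value rests on few UMIs. Over the whole absorptive class the Acvr1b log2 difference was 0.30 ± 0.27 (adjusted p = 0.406, edgeR). In the cluster led by Defb45 the difference was -0.30 ± 0.20 (adjusted p = 0.287, edgeR), with 4 of 9 tumors above. Over all epithelial clusters that no marker list named, 8 of 9 tumors were above, although the Defb45 cluster held 1581 of their 1767 tumor cells and 884 of their 9973 mucosal cells. Acvr2a, at 11.3 to 13.97 CPM in tumors and 9.58, 12.1 and 11.04 in mucosa, did not pass (-0.09 ± 0.09).

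In the epithelial sums 64.9% of 15420 genes passed, 34.2% higher and 30.7% lower. Inhba, Inhbb, Tgfb2, Tgfb3 and Fst passed the low-count filter only through the tumors here too and had to differ. Of the other 5 genes 3 passed, Tgfb1 and Smad7 higher and Acvr1b lower. The scaling of libraries (TMM) shifts these log2 differences by -0.29 relative to ratios of CPM. Of the 16 dissociation genes 14 were higher in the same sums, at 2781 to 6168 CPM in tumors and 1446 to 1667 in mucosa, and their part was not tested.

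Tumor epithelial-like cells were next compared with absorptive epithelial-like cells of the same 7 tumors, which shared the dissociation, with the library as a block. The 10 genes took no part in the clustering. In the absorptive cells Inhba and Inhbb had no UMI and Fst had 6. Fst was higher in tumor epithelial-like cells by 4.16 ± 0.45 on the log2 scale and Tgfb1 by 2.20 ± 0.39. The Fst difference was 4.83 without tumor 2 and 4.77 without tumor 10. Acvr1b and Smad7 were lower there, with log2 differences of -1.31 ± 0.22 and -0.93 ± 0.15. Inhba and Inhbb, without a UMI in the absorptive cells, passed the low-count filter only through the tumor epithelial-like cells, and their calls are not read. Fst rested on 6 absorptive UMIs, with 2 of 7 libraries past the filter there, so its call is no support by itself. Of the other 6 genes tested, Fst included, 4 passed by edgeR. Over all genes 72.8% of 13034 passed, 48.9% higher and 23.9% lower, and the median was 0.71. With cells under 10% mitochondrial UMIs only 2 tumors, 2 and 10, kept 20 absorptive cells, and 3 genes passed, namely Fst (2.01 ± 0.61), Acvr1b (-1.47 ± 0.58) and Smad7 (-1.07 ± 0.31). The Tgfb1 difference was then 1.35 ± 0.65 (adjusted p = 0.0921, edgeR).

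Cell types present in both tissues were compared within the class, with Smad7 and Tgfb1 rising in the NK or innate lymphoid, B and T cell-like classes. These fits were not repeated with the tumors of a mouse summed together. In T cell-like cells Smad7 was between 218 and 399 CPM in tumors, with a median of 334, and 149.6, 112 and 197 CPM in mucosa 1, 2 and 3, a log2 difference of 1.21 ± 0.20 without overlap. In NK or innate lymphoid-like cells it was between 204 and 522 CPM in tumors, with a median of 407, and 127, 135 and 137 in mucosa, a difference of 1.56 ± 0.28, also without overlap. In B cell-like cells it was 119.6 to 284 CPM in tumors and 124, 70.7 and 107 in mucosa, a rise of 0.85 ± 0.21 with 9 of 10 tumors above all mucosa libraries. At resolution 2 the B cell-like cluster led by Ighd had 4556 tumor and 708 mucosal cells, and that led by Ccr6 had 31 and 367. In every comparison of this class, tissue and kind of B cell therefore cannot be told apart.

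Absorptive epithelial-like cells had 133 to 311 CPM of Smad7 in 7 tumors, with a median of 196, and 109, 83.9 and 87.9 CPM in mucosa, a log2 difference of 1.29 ± 0.30 without overlap. Of the tumor cells, 444 came from the cluster led by Tgm3 and Clca4b, which held 458 mucosal cells, while the cluster led by Tmigd1 (1754 cells) and that led by Fabp6 (1392 cells) were almost all mucosal. In the shared cluster alone the mucosa libraries had 108, 114 and 137 CPM, and 6 of 7 tumors lay above all of them.

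In plasma cell-like cells Smad7 was low, at 15.1 to 35.6 CPM in tumors and 28, 17.5 and 24.7 CPM in mucosa, which overlapped. The log2 difference of 0.67 ± 0.23 passed (adjusted p = 0.0382, edgeR), but TMM scaling adds 0.65 to ratios of CPM in this class. The call was lost without mucosa 1 (0.74), mucosa 2 (0.50) and each of tumors 3, 5, 6, 7 and 8, with adjusted p from 0.0520 to 0.199.

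Tgfb1 was between 149 and 223 CPM in T cell-like cells of the tumors, with a median of 183, and 109, 90.7 and 139 CPM in mucosa 1, 2 and 3. The NK or innate class had 245 to 425 and 233, 214 and 191 CPM. B cell-like cells, a class of different make-up in each tissue, had 123 to 232 and 113, 86.0 and 90.8 CPM. It rose by 0.83 ± 0.15 in T cell-like, by 0.80 ± 0.21 in the NK or innate class and by 0.88 ± 0.18 in B cell-like cells, without overlap of the groups in any of these classes. In plasma cell-like cells it was 10.2 to 18.6 CPM in tumors and 28, 34.1 and 20.2 in mucosa, all tumors being lower by CPM, and the scaled difference of -0.30 ± 0.19 did not pass (adjusted p = 0.256, edgeR). In T cell-like cells Tgfb3, which reached the low-count filter only through the tumors, had 2 UMIs in mucosa and 156 in tumors, with no overlap and a log2 difference whose adjusted p was 0.0295 (edgeR). The ratio per UMI was 6.62, with a 95% counting interval of 1.80 to 55.2. The call was lost without mucosa 1 (adjusted p = 0.215), mucosa 2 (0.0667) or mucosa 3 (0.0579).

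**Figure D5:**
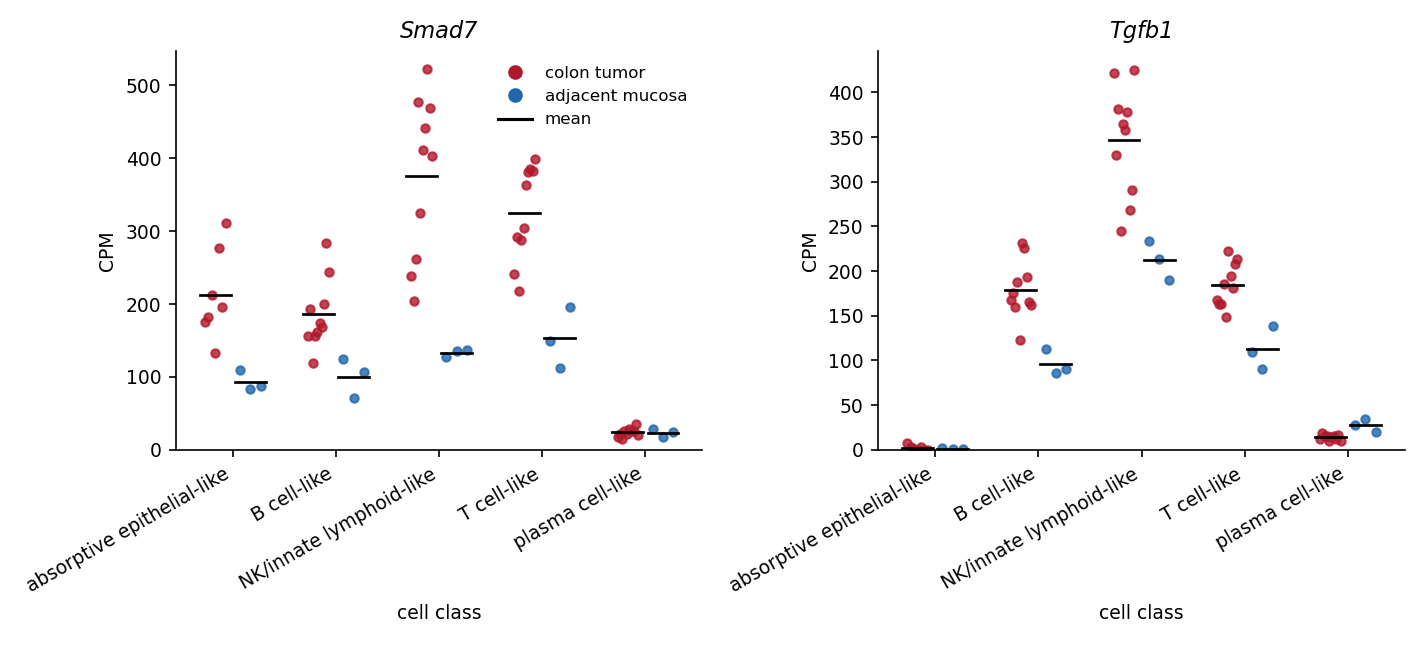
Smad7 and Tgfb1 in 5 cell classes found in both tissues, in CPM. Each point is 1 library with 20 or more such cells, and lines are means. In the T cell-like and the NK or innate class every tumor lies above every mucosa library for both genes, and in plasma cell-like cells both genes are low in each tissue.

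By edgeR Smad7, Tgfb1 and Tgfb3 passed of 6 genes tested in T cell-like cells, where 21.2% of 9927 genes passed, 11.9% higher and 9.29% lower. Tgfb3 reached the low-count filter only through the tumors, so its call is not read. Of the 3 genes past the filter in mucosa too, 2 passed. In B cell-like cells 2 of 2 passed, where 39.4% of 5655 genes passed, 18.0% higher and 21.3% lower. In NK or innate lymphoid-like cells 2 of 2 passed, where 27.7% of 3764 genes passed, 15.6% higher and 12.1% lower. In plasma cell-like cells 1 of 3 passed, where 26.3% of 9265 genes passed, 12.6% higher and 13.7% lower. In absorptive epithelial-like cells 1 of 3 passed, where 34.1% of 6404 genes passed, 17.2% higher and 16.9% lower. Inhba, Inhbb, Tgfb2 and Fst were too scarce to be tested in any of these classes. The dissociation genes rose in the same classes, 13 of 15 tested in T cell-like, B cell-like and NK or innate lymphoid-like alike, and summed to 5008 to 7274 CPM in T cell-like cells of tumors and 2267 to 2964 of mucosa. In plasma cell-like cells 12 of 16 rose, with overlapping sums of 1835 to 2715 and 1485 to 2005 CPM. The myeloid genes summed to 210.3 to 1189 CPM in T cell-like and 337 to 11350 CPM in B cell-like cells of tumors, against 322 to 471 and 67.8 to 147 CPM in mucosa. In NK or innate lymphoid-like cells that sum was 3094 to 6862 CPM in tumors and 5061 to 7089 in mucosa. In absorptive epithelial-like cells it was 692 to 7721 and 66.3 to 178 CPM, and the dissociation genes summed to 3793 to 5775 and 2096 to 3266 CPM. The part of either list in the rise of Smad7 and Tgfb1 was not tested.

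The tissue difference was not equal in the 4 lymphoid classes. In an edgeR fit with library and class as terms, the tissue difference itself differed between T, B, NK or innate lymphoid and plasma cell-like cells for Tgfb1 (adjusted p = 0.00126) and Smad7 (adjusted p = 0.00654), where 23.8% of 10566 genes did. Tgfb3 passed too (adjusted p = 0.0395, edgeR), but its call is not read. Acvr1b, Acvr2a, Inhba and Tgfbi were tested and did not pass. Relative to T cell-like cells, the Tgfb1 difference was -1.12 in plasma cell-like, 0.06 in B cell-like and 0.05 in the NK or innate class on the log2 scale. For Smad7 these values were -0.55, -0.38 and 0.41. For Tgfb3 they were -0.28, -2.84 and -3.72, resting on 2 mucosal UMIs in T, 0 in plasma, 14 in B cell-like cells and 6 in the NK or innate class. These are too few to give their size or to read the call. Mucosa 1, 2 and 3 had 8.31, 1.91 and 0 CPM in B cell-like cells and 11.2, 0 and 0 in the NK or innate class.

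A pair of clusters that no marker list named was compared as well, a choice made after the clusters were seen. In the immune cluster led by Tcrg-C2, Trgv2 and Cd160, Tgfb1 was 87.8 to 205 CPM in 8 tumors and 80.0, 67.8 and 84.1 in mucosa, a rise of 0.96 ± 0.20 without overlap, where 17.4% of 4501 genes passed, 10.1% higher and 7.35% lower. Smad7 rose there by 0.74 ± 0.22 (adjusted p = 0.0208, edgeR), a call lost without mucosa 1 (adjusted p = 0.0660) or mucosa 2 (0.0879), and 7 of 11 dissociation genes tested rose there. In the epithelial cluster led by Defb45, Gsdmc4 and Aqp4, Tgfb1 was 5.30 to 20.7 CPM in 9 tumors and 1.62, 3.29 and 5.31 in mucosa, a log2 difference of 1.29 ± 0.34, where 21.8% of 11066 genes passed, 9.61% higher and 12.2% lower, and 9 of 10 myeloid and 12 of 16 dissociation genes tested rose too. The Tgfb1 call was lost without mucosa 1 (adjusted p = 0.0622) or mucosa 2 (0.0517). Tgfbi was 1.16 to 8.28 CPM in 9 tumors and 0, 0.219 and 0.708 in mucosa, on 5 mucosal UMIs, with a log2 difference of 2.79 ± 0.66 (4.15 without mucosa 3). Both genes reached the low-count filter only through the tumors, so their calls are not read.

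The rest of the pathway was read from 48 further genes, by group. Over all cells 32 of 41 tested rose and 4 fell, with a median log2 difference of 1.93 against 0.03 for all genes, where 36.6% of all genes tested rose and 34.4% fell. Of those that also reached the low-count filter in the group where they were lower, 23 of 32 rose and 4 fell. In epithelial cells 28 of 37 rose and 3 fell, with a median of 1.40 against 0.04, where 34.2% of all genes tested rose and 30.7% fell, and past the filter in both groups 19 of 28 rose and 3 fell. In the same sums 10 of 11 myeloid and 14 of 16 dissociation genes rose too, and the part of either list was not tested. Most tumor cells in them were of a class nearly absent from mucosa, so tissue and kind of epithelial cell cannot be told apart. Of the genes that hold or release latent TGF-β, 8 of 9 rose in epithelial cells, where 34.2% of all genes tested rose. They were led by Ltbp1 (7.22 ± 0.99) and Ltbp3 (6.41 ± 0.67), which tether the latent ligand, and Itgb8 (6.31 ± 0.56), an integrin chain that releases it. Counts by pathway group, here and below, may include genes that reached the filter only through the tumors, and are no support by themselves.

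All 9 other inhibitors tested rose in epithelial cells, where 34.2% of all genes tested rose. They were led by Pmepa1 (2.77 ± 0.25), by Bambi (2.21 ± 0.36), which acts at the receptors, and by Skil (1.64 ± 0.15), which represses SMAD targets. Of the target genes 3 of 6 passed, all higher, where 64.9% of all genes passed and 34.2% were higher. Among them was Ccn2, a matrix-associated growth factor with no mucosal UMI (at least 203-fold higher against the same floor), which had to differ. Snai1 (2.75 ± 0.43), a transcription factor, was another. Among other ligands Gdf11 rose by 4.19 ± 0.60 and Gdf15 by 2.63 ± 0.44, while Lefty1, an inhibitor of Nodal, fell by 1.60 on the log2 scale (SE 0.37).

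Of the other receptors 4 of 7 rose in epithelial cells and 2 fell, where 34.2% of all genes tested rose and 30.7% fell. Tgfbr3, a co-receptor, rose by 2.90 ± 0.92. The type I receptor gene Acvr1c fell by 2.81 on the log2 scale (SE 0.46), and Acvrl1, another type I receptor gene, fell by 1.66 on the log2 scale (SE 0.39). Smad3 and Smad2, which encode the SMADs that activin and TGF-β receptors phosphorylate, rose by 1.48 ± 0.15 and 0.60 ± 0.09. Over all cells the largest receptor differences were those of the co-receptor Eng (6.39 ± 0.62) and of Acvrl1 (3.57 ± 0.33).

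In T cell-like cells 11 of 23 of these genes rose and 1 fell, with a median log2 difference of 0.80 against 0.01 for all genes, where 11.9% of all genes tested rose and 9.29% fell, and past the filter in both groups 8 of 17 rose and 1 fell. Of the dissociation genes 13 of 15 rose in the same cells. Tgif1 (3.83 ± 0.24), a repressor of SMAD targets, Bambi (1.80 ± 0.50) and Skil (1.44 ± 0.18) led the inhibitors there, and Cdkn1a (2.86 ± 0.21), a cell-cycle inhibitor, was the target gene that rose. In B cell-like cells 7 of 12 rose and none fell, where 18.0% of all genes tested rose and 21.3% fell, and past the filter in both groups 2 of 6 rose and none fell. In the NK or innate class 3 of 10 rose and none fell, where 15.6% of all genes tested rose and 12.1% fell, and past the filter in both groups 1 of 4 rose and none fell. In plasma cell-like cells 5 of 18 rose and 2 fell, where 12.6% of all genes tested rose and 13.7% fell, and past the filter in both groups 2 of 12 rose and 1 fell, close to the shares of all genes. In the Tcrg-C2 cluster 6 of 12 rose and none fell, where 10.1% of all genes tested rose and 7.35% fell, and past the filter in both groups 3 of 7 rose and none fell. In the Defb45 cluster 10 of 25 rose and 2 fell, where 9.61% of all genes tested rose and 12.2% fell, and past the filter in both groups 7 of 20 rose and 2 fell. Tgif1 rose by 3.08 ± 0.23 in B cell-like and by 4.16 ± 0.34 in NK or innate lymphoid-like cells. In absorptive epithelial-like cells 10 of 15 rose and none fell, with a median of 1.53 against -0.01, where 17.2% of all genes tested rose and 16.9% fell, and past the filter in both groups 5 of 8 rose and none fell. Neither target gene tested there, Cdkn1a and Cdkn2b, passed. Pmepa1 rose by 5.69 ± 0.59 and Smad3 by 1.84 ± 0.29. In the cluster led by Tgm3 and Clca4b alone, which held most of the absorptive tumor cells, Pmepa1 was 296 to 1219 CPM in 7 tumors and 16.2, 34.4 and 7.47 in mucosa, without overlap. Smad3 was 12.1 to 21.5 CPM in 7 tumors and 16.2, 6.39 and 5.17 in mucosa there, and 4 of 7 tumors lay above every mucosa library. Low mucosa 1 values in this cluster rest on few UMIs, the lowest above 0 among the listed genes being 5.39 CPM. Target genes, named after their values were seen, were lower by CPM in that cluster, Cdkn1a at 637 to 901 CPM in 7 tumors and 987, 1178 and 1328 in mucosa, with no overlap. Cdkn2b was below every mucosa library in 5 of 7 tumors and Itgae, an integrin chain, in 6 of 7. These values were not tested. In absorptive cells 6 of 6 myeloid and 10 of 12 dissociation genes tested rose as well, and their part was not tested.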

How the data were processed

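The authors sequenced 10x Genomics 3′ libraries and deposited filtered matrices of whole-number UMI counts per gene and barcode. The submitters' processing notes name Cell Ranger 6.0.0 and mm10. From these counts, barcodes with at least 500 UMIs, 200 genes and at most 25% mitochondrial UMIs were kept, doublets were scored per library and the highest 0.8% per 1000 barcodes removed (10392 in all), and cells were clustered on 2000 variable genes, 30 components and 20 neighbours by the Leiden method (resolution 1, 39 clusters). The 10 genes and the 48 pathway genes were held out of the variable genes. Counts were summed per library, or per library and class with at least 20 cells, and tested with edgeR 4.0.16 (R 4.3.3; quasi-likelihood, TMM, low-count filter, Benjamini-Hochberg, threshold 0.05). Only the edgeR fits were tried on simulated sums, not the filtering, doublet or clustering steps. Alternatives were DESeq2 1.42.0, its size factors, no low-count filter, a 10% mitochondrial limit, resolution 2, the mouse as a block and leaving out each library. Doublets were kept only for the all-cell sums, and the library block was dropped only within tumors. Tumors were summed per mouse only for the all-cell and epithelial sums, not for the fits by class. Leaving out each mouse, and at least 1000 UMIs and 500 genes per cell, applied to levels only. Of each pathway group the up to 3 genes with the largest difference past the threshold could be named, and for each member the 3 genes of most similar pattern. Members and lists were chosen with earlier results of these data known. Values of some list genes are not reported here.

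The mouse codes in the labels pair tumors with the mucosa of the same animal. Deviations from the group means correlated, over genes, at 0.0864, 0.0162 and 0.0676 for mice A, B and C in all cells and at 0.0835, 0.0487 and 0.174 in epithelial cells.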

Additional observations from a re-analysis of the deposited data

Results flagged for a closer look

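Among 30 groups of libraries checked, 2 had a library that stood apart from the rest, where chance alone marks about 1 in 20 groups. Tgfb2 in the epithelial sums was 2.216 CPM in tumor 9, against 0.737 CPM in the next tumor and a median of 0.585. Tgfb2 in T cell-like cells was 4.009 CPM in tumor 10, against 1.76 CPM in the next tumor, on 21 UMIs in all tumors. Both tumors came from mouse B.

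The tumor against mucosa difference differed between the 4 lymphoid classes for Tgfb1 (adjusted p = 0.001263, edgeR) and Smad7 (adjusted p = 0.006537, edgeR). Tgfb3 passed too (adjusted p = 0.03949, edgeR), but with few mucosal UMIs, and its call is not read. The Tgfb1 difference was 0.83 in T cell-like and -0.30 in plasma cell-like cells on the log2 scale.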

How the results depend on the processing

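No called result reversed its direction under the alternatives run. Of the fold changes of the 10 genes under the alternatives, the pair of clusters with no marker list included, 875 kept their direction and side of the threshold or stayed short of it, 19 were no longer past it and 10 were newly past it. Without the low-count filter absorptive epithelial-like cells gave 3665 genes past the threshold in place of 2185, and 2 of the 10 genes in place of 1. With cells under 10% mitochondrial UMIs the comparison of tumor epithelial-like with absorptive cells gave 4651 genes in place of 9488 and 3 of the 10 genes in place of 6 (Inhba and Inhbb, without an absorptive UMI, among the 6), and the tumor against mucosa comparison of absorptive cells could not be fitted. At resolution 2 the class that matches the Arg1+ macrophage-like cells also held a cluster of 2252 tumor cells led by Mmp12 and Spp1. Tgfb1 was 446 CPM in that wider class, below the Ly6c+ monocyte-like class. With the mouse as a replicate block, epithelial Tgfbi passed at 1.24, and no other call among the 10 genes changed in that fit. Leaving out 1 library at a time gave 1152 to 2993 genes in absorptive epithelial-like, 1501 to 2353 in B cell-like, 533 to 1082 in NK or innate lymphoid-like, 1471 to 2613 in plasma cell-like and 1241 to 2386 in T cell-like cells. The counts moved by over 1.5 times without mucosa 2 (1229) or mucosa 3 (1152) in absorptive epithelial-like, without mucosa 1 (533) in NK or innate lymphoid-like, without mucosa 2 (1471) in plasma cell-like and without mucosa 1 (1241) in T cell-like cells. Of the 10 genes, 0 to 1 passed in plasma cell-like and 2 to 3 in T cell-like cells. Tgfbi newly passed in T cell-like cells without mucosa 3 (adjusted p = 0.0377, edgeR). That library held all 6 mucosal Tgfbi UMIs of the class, so the gene then had to differ and the call is not read. Smad7 newly passed in the cluster led by Defb45 with DESeq2 (adjusted p = 0.0463) and, by edgeR, without tumor 2 (0.0309) or tumor 3 (0.0482). Without mouse B, Tgfb2 was highest in tumor epithelial-like and Tgfb3 in T cell-like cells, and without mouse C Tgfbi was highest in C1q+ macrophage-like cells. With 3 mucosa libraries, 3 mice and few mucosal UMIs for Inhba, Inhbb, Tgfb2, Tgfb3 and Fst, fold sizes for these genes are imprecise.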
